A study of Homo sapiens with 13 samples.

Results

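The genes described here are the 10 at the core of YAP/TAZ signalling: the coactivators YAP1 and WWTR1, which encodes TAZ, the DNA-binding partners TEAD1, TEAD2, TEAD3 and TEAD4, and the targets CCN1, CCN2, ANKRD1 and AMOTL2. They were chosen by name among 19881 protein-coding genes with a canonical transcription start site (TSS) on the chromosomes 1 to 22, X and Y, and all 10 were found in the annotation (GENCODE release 44 on GRCh37, the sequence of the hg19 build). The cells were MDA-MB-231, a line of human breast cancer cells labelled triple negative and basal B, with no treatment and no genetic change given in the labels. Chromatin immunoprecipitation followed by sequencing (ChIP-seq) had mapped the histone marks H3K4me1, H3K4me3 and H3K27ac, the acetyltransferases p300/CBP, RNA polymerase II (Pol II) and the boundary factor CTCF, in 13 libraries: 2 for each antibody but p300/CBP, which had 1, and 2 of input DNA. For each antibody there was 1 list of peak positions, made from merged libraries or, for p300/CBP, from its 1 library. No value below therefore has a spread between replicates, no test between groups was possible, and the depth behind a peak is unknown. The lists held from 13984 peaks (p300/CBP) to 88319 peaks (H3K4me1). As a check of the basal label, 6 of 6 basal-B markers (VIM, CD44, EGFR, CAV1, FOSL1 and AXL) had H3K27ac and Pol II at the promoter. So did 2 of 6 luminal markers (FOXA1 and ERBB3, but not ESR1, PGR, GATA3 or CDH1). Over all genes, H3K27ac was at 61.5% of promoters and Pol II at 58.4%, so that 6 of 6 is a weak check.

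YAP and TAZ do not bind DNA themselves. When the Hippo kinases are inactive they enter the nucleus, bind the TEAD transcription factors and switch on genes of growth, adhesion and the cytoskeleton. TEAD sites in enhancers often lie near sites of AP-1, the family of FOS and JUN dimers, and p300 and CBP acetylate histones at such elements, which is read as H3K27ac. H3K4me3 marks promoters, H3K4me1 without H3K4me3 marks enhancers, and Pol II lies at promoters and along genes that are being transcribed.

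The sequences of 6 p300/CBP peaks near the members are shown. Each holds at least 1 of the 2 motifs compared below, whereas 11 of the 32 p300/CBP peaks in the 10 loci held neither. Capitals mark each match to the TEAD motif GGAATG (or its complement CATTCC) and to the AP-1 motif TGANTCA, which reads the same on both strands. The motifs share no bases with each other in these sequences. All were read from the GRCh37 genome, 5′ to 3′ in the direction in which the member is transcribed.
CCN2, whole 200-bp peak next to the TSS, chr6:132272551-132272750 (- strand): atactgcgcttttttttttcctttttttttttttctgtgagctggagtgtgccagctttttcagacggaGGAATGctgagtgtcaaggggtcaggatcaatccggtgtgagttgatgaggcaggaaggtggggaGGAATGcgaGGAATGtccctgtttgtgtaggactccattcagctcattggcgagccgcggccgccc
ANKRD1, the 300 bases of its 550-bp peak that lie nearest to the TSS, chr10:92680901-92681200 (- strand): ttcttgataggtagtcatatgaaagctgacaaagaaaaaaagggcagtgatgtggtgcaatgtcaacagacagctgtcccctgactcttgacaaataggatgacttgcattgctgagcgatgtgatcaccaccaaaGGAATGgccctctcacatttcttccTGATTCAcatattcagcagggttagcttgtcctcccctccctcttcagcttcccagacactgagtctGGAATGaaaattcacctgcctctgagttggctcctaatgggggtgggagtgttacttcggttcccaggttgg
CCN1, the central 300 bases of a 650-bp peak 26.6 kb downstream of the TSS, chr1:86072926-86073225 (+ strand): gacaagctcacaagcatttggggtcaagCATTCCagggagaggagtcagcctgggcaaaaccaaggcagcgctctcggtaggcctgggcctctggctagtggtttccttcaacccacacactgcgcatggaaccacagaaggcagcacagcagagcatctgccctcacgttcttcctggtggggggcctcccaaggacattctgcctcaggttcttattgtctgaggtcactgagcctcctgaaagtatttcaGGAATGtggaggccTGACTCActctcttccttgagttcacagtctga
AMOTL2, the central 300 bases of a 400-bp peak 53.2 kb upstream of the TSS, chr3:134146301-134146600 (- strand): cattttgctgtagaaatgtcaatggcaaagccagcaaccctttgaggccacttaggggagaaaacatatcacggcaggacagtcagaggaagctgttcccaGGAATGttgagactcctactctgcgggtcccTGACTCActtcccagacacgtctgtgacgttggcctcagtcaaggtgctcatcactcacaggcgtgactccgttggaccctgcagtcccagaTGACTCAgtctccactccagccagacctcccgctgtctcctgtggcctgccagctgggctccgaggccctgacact
YAP1, whole 250-bp peak in an intron, 68.0 kb downstream of the TSS, chr11:102049101-102049350 (+ strand): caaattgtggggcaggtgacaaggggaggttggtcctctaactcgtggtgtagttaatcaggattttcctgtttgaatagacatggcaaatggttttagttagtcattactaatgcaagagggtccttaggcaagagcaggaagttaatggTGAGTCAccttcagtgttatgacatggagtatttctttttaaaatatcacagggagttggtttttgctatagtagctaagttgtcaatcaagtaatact
TEAD1, the central 300 bases of a 350-bp peak in an intron, 19.4 kb downstream of the TSS, chr11:12715226-12715525 (+ strand): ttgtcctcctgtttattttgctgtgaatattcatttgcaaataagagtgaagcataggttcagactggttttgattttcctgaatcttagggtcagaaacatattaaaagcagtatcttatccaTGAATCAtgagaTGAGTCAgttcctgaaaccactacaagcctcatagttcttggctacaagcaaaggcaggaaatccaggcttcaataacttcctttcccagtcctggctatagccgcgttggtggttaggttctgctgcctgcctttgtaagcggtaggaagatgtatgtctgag
The CCN2 peak held 3 TEAD matches and no AP-1 match, the stretches of the ANKRD1 and CCN1 peaks each held 2 TEAD matches and 1 AP-1 match, and that of the AMOTL2 peak held 1 and 2. The YAP1 and TEAD1 peaks held AP-1 matches only, 1 and 2.

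The other TEAD matches next to a member's TSS lay outside p300/CBP peaks. They are shown in stretches of 30 bases, chosen after their positions had been seen, with the first and last base counted from the TSS as 0 and the matches in capitals.
CCN1, bases -122 to -93, chr1:86046322-86046351 (+ strand): cgcgccaaccagCATTCCtgagatgtttga
AMOTL2, bases -81 to -52, chr3:134093341-134093370 (- strand): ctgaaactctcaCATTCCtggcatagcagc
YAP1, bases -174 to -145, chr11:101981004-101981033 (+ strand): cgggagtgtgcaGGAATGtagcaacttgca
TEAD1, bases -19 to 10, chr11:12695949-12695978 (+ strand): tcatttCATTCCtgtcctCATTCCgaacat
TEAD4, bases -15 to 14, chr12:3068548-3068577 (+ strand): ctCATTCCagccctCATTCCgcgCATTCCa
Those of TEAD1 and TEAD4 lay on the TSS itself, and TEAD4 had 3 of them in 30 bases.

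All 10 genes carried the marks of an active promoter. A promoter window was the 3 kb centred on the canonical TSS, and a window was counted where it shared at least 1 bp with a peak. H3K27ac was present in 10 of 10 windows (61.5% of all protein-coding genes), H3K4me3 in 10 of 10 (62.7%) and Pol II in 10 of 10 (58.4%). All 3 together were found in 56.3% of all genes. H3K4me1 was present in 7 of 10 (59.4%), and was missing from the windows of YAP1, WWTR1 and CCN1. Of all windows with H3K27ac, 85.3% held H3K4me1. On the TSS base itself, H3K27ac was found in 7 of 10 members (47.6% of all genes), H3K4me3 in 6 (52.2%), Pol II in 9 (51.2%), and H3K4me1 (8.38%), p300/CBP (0.0654%) and CTCF (4.08%) in none.

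p300/CBP and CTCF were each in the promoter windows of some members only. p300/CBP was in the promoter windows of CCN2 and ANKRD1, which is 2 of 10, whereas it was in those of 140 of all genes (0.704%), or 0.990% of windows that held H3K27ac. CTCF was in the windows of YAP1, CCN1 and CCN2, 3 of 10 as against 17.6% of all genes. That is close to the 24.4% of windows with H3K27ac, which all 10 members had. At YAP1, CCN1 and CCN2 the CTCF peak lay downstream of the TSS, by 723, 557 and 662 bp.

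**Figure D1:**
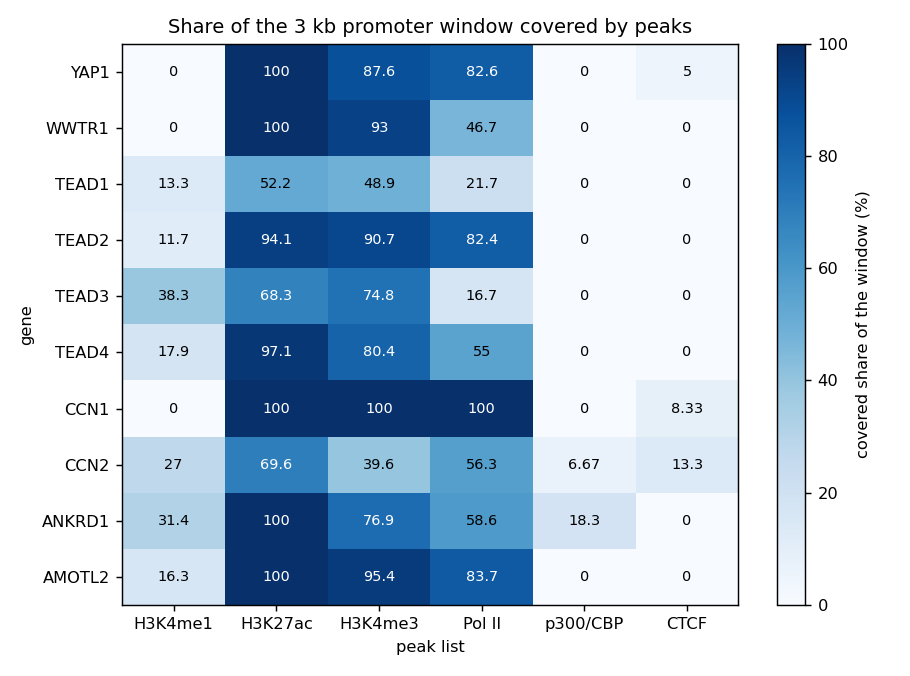
Heat map of the share of the 3 kb promoter window, in percent, that peaks of each list (columns) cover in each member (rows). H3K27ac covers 100% of the windows of YAP1, WWTR1, CCN1, ANKRD1 and AMOTL2 and only 52.2% of that of TEAD1, and p300/CBP is seen in the CCN2 and ANKRD1 rows alone.

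YAP1 and WWTR1, the coactivators, had wide promoter regions without H3K4me1. At YAP1 (chromosome 11) the TSS lay in an H3K27ac peak of 4850 bp, an H3K4me3 peak of 4300 bp and a Pol II peak of 2850 bp. The H3K27ac and H3K4me3 peaks were wider than 95.3% and 96.2% of their lists. At WWTR1 (chromosome 3) the H3K27ac peak was 3750 bp, the H3K4me3 peak 4900 bp and the Pol II peak 1400 bp. For both genes the nearest H3K4me1 peak began just past the edge of the window, 1778 and 1589 bp upstream of the TSS. WWTR1 has a second annotated start, at -45.2 kb from the canonical one, whose own 3 kb window held H3K4me1 and none of the other 5 lists. Of the starts that were read, only the canonical one held the active marks.

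The promoters of the TEAD genes differed among themselves. The TSS of TEAD2 lay in a peak of 3 lists, with H3K27ac over 94.1%, H3K4me3 over 90.7% and Pol II over 82.4% of the window, in peaks of 3200, 3050 and 2650 bp. Each of these peaks also touched the promoter window of DKKL1, so that they cannot be given to TEAD2 alone. At TEAD4 the H3K27ac peak was 4050 bp, over 97.1% of the window, and the Pol II peak 1650 bp.

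At TEAD1, TEAD3 and TEAD4 the TSS lay in a gap between peaks of a histone mark. The gap in H3K27ac was 1150 bp at TEAD1 and 600 bp at TEAD3, and that in H3K4me3 was 1100 bp at TEAD1, 500 bp at TEAD3 and 550 bp at TEAD4. Such a gap around the TSS was found in 7.40% of all genes for H3K27ac and in 5.41% for H3K4me3. The TEAD1 TSS was covered by a Pol II peak of 650 bp, and that of TEAD3 by no peak of any list, its nearest Pol II peak (500 bp wide) being 495 bp upstream. The pairs of TEAD matches at TEAD1 and the 3 at TEAD4 shown above lie in these gaps of H3K4me3. The gaps were looked for after the tracks had been seen. Those of 500, 550 and 600 bp lie at or just above the 500 bp under which runs of these marks were joined.

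CCN2, which encodes the secreted matricellular protein once called CTGF, had the same arrangement. Its H3K27ac was split into peaks of 1100 bp upstream and 2100 bp downstream, 700 bp apart, and its H3K4me3 gap was 850 bp. The Pol II peak of 5000 bp covered the TSS. The p300/CBP peak, from -238 to -39 bp, lay over the upstream edge of the H3K27ac gap and inside the H3K4me3 gap, and is the sequence with 3 TEAD matches printed first above. An intron of the non-coding gene LINC01013 is annotated at the same place.

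At the other 3 targets the TSS lay in 1 long peak of each of these marks. CCN1, which encodes the related secreted protein CYR61, lay in an H3K27ac peak of 11400 bp (wider than 99.7% of the list), an H3K4me3 peak of 10050 bp (99.8%) and a Pol II peak of 9100 bp (97.6%). The gene itself is 3829 bp long, so that all 3 peaks ran past both of its ends. ANKRD1, an ankyrin-repeat protein of muscle and of cells under mechanical load, had H3K27ac over 9700 bp (99.4%), H3K4me3 over 6400 bp (99.1%) and Pol II over 12300 bp (98.7%). Upstream of it ran an H3K4me1 peak of 17950 bp (99.8%).

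AMOTL2, an angiomotin family protein that binds YAP, had the widest H3K27ac and Pol II peaks of the 10. Its H3K27ac peak was 20500 bp, its Pol II peak 24950 bp (99.8%) and its H3K4me3 peak 7500 bp (99.5%). The H3K27ac width rounds to the 100.0 percentile of its list. No other protein-coding gene starts in this locus, taken as the gene body and 100 kb on either side.

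**Figure D2:**
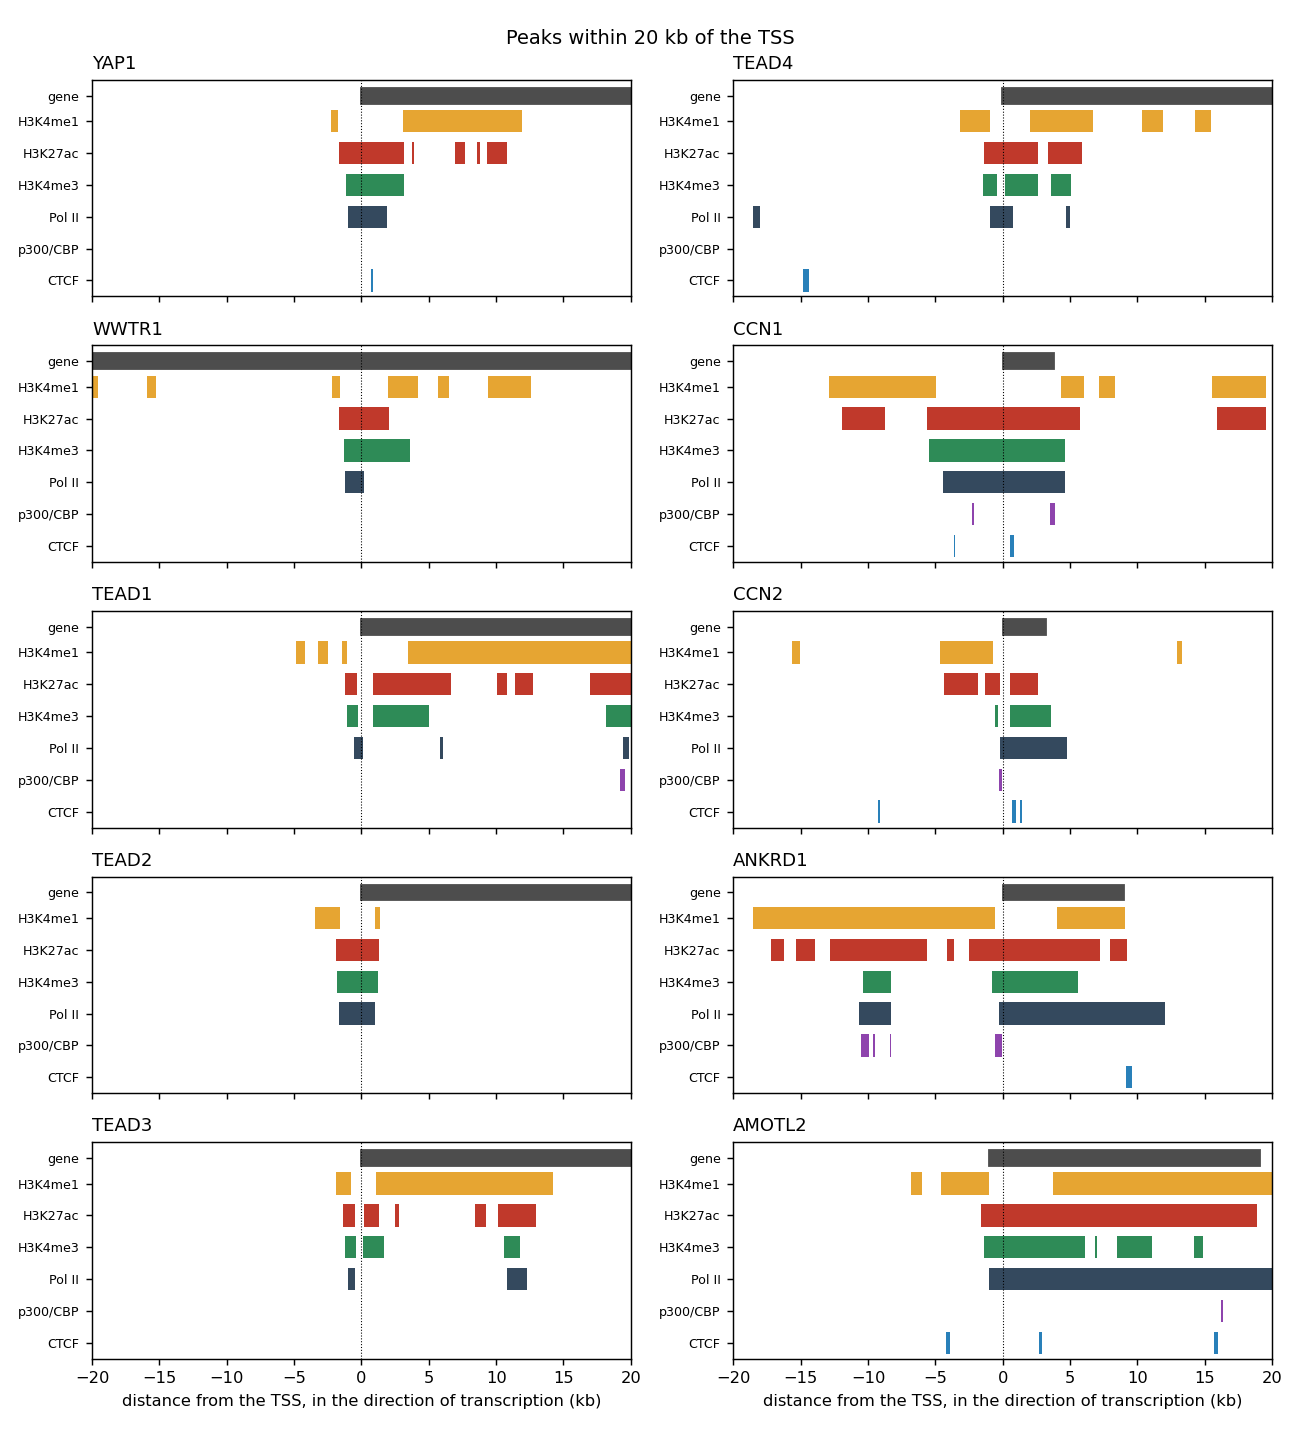
Peaks of the 6 lists (coloured bars) within 20 kb of the TSS of each member, drawn in the direction of transcription, with the annotated gene as a dark bar. The Pol II bar spans the whole gene at CCN1, CCN2, ANKRD1 and AMOTL2 and only the region of the TSS at YAP1, WWTR1 and TEAD2, and the histone bars are broken at the TSS of TEAD1, TEAD3 and CCN2.

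The 4 targets were covered by Pol II over at least 99% of their length, whereas the coactivators and TEAD genes were covered over small parts. The share of the gene body covered by Pol II peaks was 100% at CCN1, 100% at CCN2, 100% at ANKRD1 and 99.9% at AMOTL2. It was 1.52% at YAP1, 0.980% at WWTR1, 0.345% at TEAD1, 4.64% at TEAD2, 18.4% at TEAD3 and 1.36% at TEAD4. The groups did not overlap. Across all genes the median was 0.749% and 2.80% of genes reached 99%, a limit that was chosen after the values had been seen. Of these genes with full cover, 2.70% had p300/CBP in the promoter window, which CCN2 and ANKRD1 had.

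Gene length differed along with Pol II cover. The targets span 3197 to 20133 bp, and the other members from 21.9 kb (TEAD2) to 270 kb (TEAD1). Among genes at least as long as itself, CCN1 ranked above 98.5%, CCN2 above 98.3%, ANKRD1 above 99.6% and AMOTL2 above 99.9%. The same ranks were 89.3% for YAP1, 90.1% for WWTR1, 81.9% for TEAD1, 83.1% for TEAD2, 95.6% for TEAD3 and 82.5% for TEAD4. These pools hold only equal or longer genes and do not match genes by length. They held 17796 genes for CCN1, 18134 for CCN2, 15259 for ANKRD1 and 11563 for AMOTL2, of 19881, but 986 for TEAD1. Ranks in such pools rose, from 42.8% among all genes at TEAD1 and from 97.3% at CCN2. AMOTL2 and TEAD2 are close in length, 20.1 and 21.9 kb, with 99.9% and 4.64% of the body covered.

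The value of TEAD3 came mostly from its far end. A Pol II peak of 9600 bp entered the gene at its 3′ end and ran out past it toward RPL10A, a ribosomal protein gene, and a peak of 1500 bp lay from 10806 to 12305 bp downstream of the TSS. Along WWTR1 and TEAD1 the Pol II peaks away from the TSS were short. WWTR1 had 1 of 750 bp, and TEAD1 had 3, of 200, 500 and 150 bp. YAP1 and TEAD2 had none, and TEAD4 had 1 of 300 bp.

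**Figure D3:**
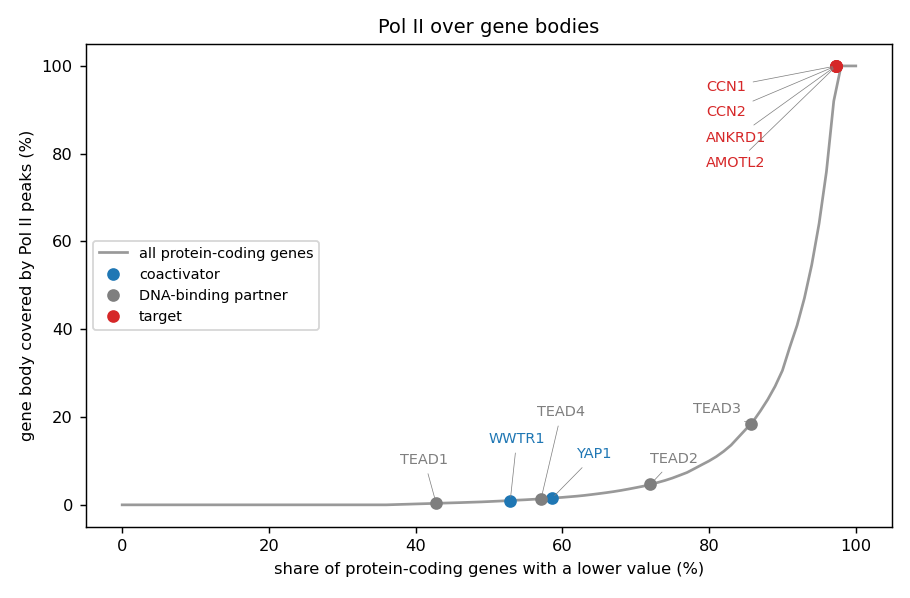
Share of the gene body covered by Pol II peaks (percent) against the share of protein-coding genes with a lower value (percent). The grey line is the curve of all genes, the points are the members coloured by role, and the 4 targets sit together at the top, above 97.3% of genes.

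H3K27ac and H3K4me3 followed the same split. It narrowed in ranks among genes at least as long, which again were not matched by length. H3K27ac covered 65.7% of the CCN2 body, 91.1% of ANKRD1, 98.9% of AMOTL2 and 100% of CCN1, as against 6.46% (TEAD4) to 21.7% (TEAD3) in the other 6 genes and a median of 2.82% over all genes. H3K4me3, a mark of promoters, covered 52.5% (AMOTL2) to 100% (CCN1) of the target bodies and at most 11.9% (TEAD3) of the others. Among genes at least as long, H3K27ac at the targets ranked from 99.1% (CCN2) up. It ranked above 97.9% at YAP1, 97.4% at TEAD3, 97.1% at TEAD1 and 95.4% at WWTR1, but 86.5% at TEAD4 and 81.8% at TEAD2. For H3K4me3 the targets ranked from 99.7% (CCN2) up, and the other members from 84.3% (TEAD2) to 99.1% (TEAD1). H3K4me1 did not follow the split. It covered none of CCN1 or CCN2, 55.0% of ANKRD1 and 76.4% of AMOTL2, and among the other members 5.26% of TEAD2 to 56.2% of TEAD3, with 44.5% at TEAD1, above 99.5% of genes at least as long.

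The TEAD motif stood next to the TSS in most members. In the 300 bases from 250 before to 50 after the TSS, 7 of 10 members held at least 1 match, as against 11.3% of all genes. WWTR1, TEAD2 and TEAD3 held none. At least 2 matches were found in TEAD1, TEAD4, CCN2 and ANKRD1, which is 4 of 10, and in 0.850% of all genes. CCN2 and TEAD4 had 3, which was true of 14 of all genes (0.0704%). The AP-1 motif was found in ANKRD1 alone, 1 of 10 beside 5.40% of all genes. The thresholds of 2 and 3 matches were set after the counts had been seen.

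Their positions fell in separate places by gene. Counted to the first base of the match, they lay at -169, -104 and -95 in CCN2, at -220 and -128 in ANKRD1, at -110 in CCN1 and at -69 in AMOTL2. The one of YAP1 lay at -162. In TEAD1 they lay at -13 and -1, and in TEAD4 at -13, -1 and 8. TEAD1 and TEAD4 thus had matches at the same offsets, within stretches of different sequence. The matches of CCN2 and ANKRD1 lay inside p300/CBP peaks and the others did not. With the longer motif GGAATGT, 3 of 10 members held a match beside 2.36% of all genes.

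**Figure D4:**
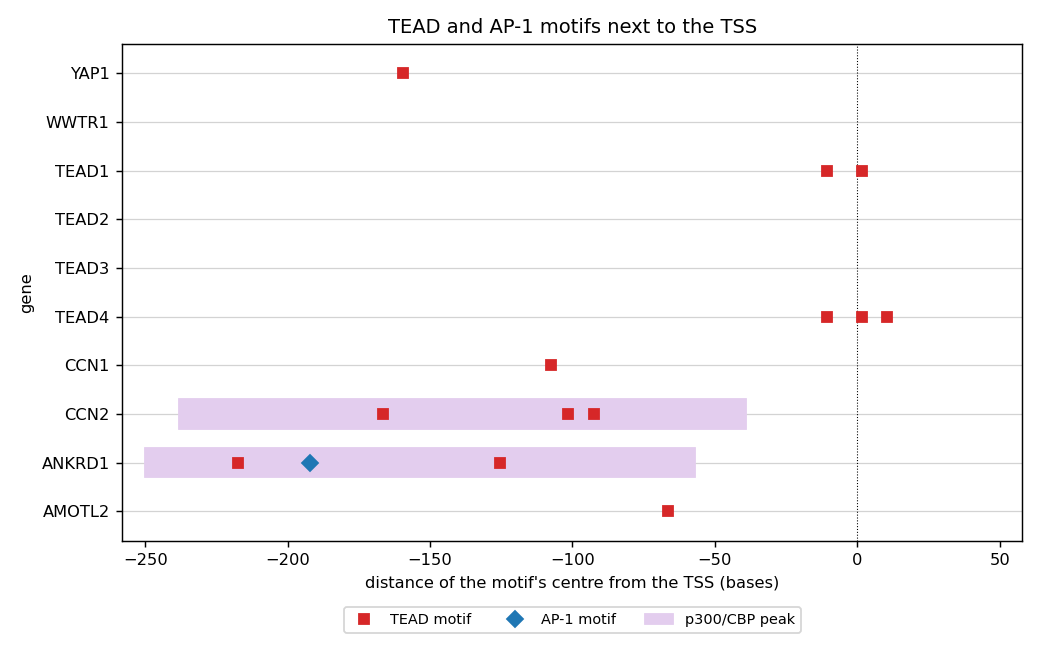
Positions of TEAD and AP-1 motif matches (points, at the centre of the match) from 250 bases before to 50 bases after the TSS, with p300/CBP peaks as shaded bars. Matches fall inside a p300/CBP peak in CCN2 and ANKRD1, and on the TSS in TEAD1 and TEAD4.

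p300/CBP peaks were densest around the targets CCN1, ANKRD1 and AMOTL2. The 10 loci held 32 peaks: 21 around the 4 targets, 8 around the 2 coactivators and 3 around the 4 TEAD genes. A peak lay in 8 of 10 loci, as against 37.5% of all genes. The loci span 203 kb (CCN2) to 470 kb (TEAD1), so that densities are given beside counts. Around CCN1 there were 9 peaks, or 4.42 per 100 kb, more than around 99.5% of all genes. The 5 of ANKRD1 (2.39 per 100 kb) ranked above 98.0%, and the 5 of AMOTL2 (2.27 per 100 kb) above 97.7%. CCN2 had 2 and ranked above 90.4%.

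Per 100 kb, YAP1 lay above CCN2 and WWTR1 just below it, and 3 of the 4 TEAD genes had 1 peak or none. YAP1 and WWTR1 each had 4 peaks, at 1.24 and 0.954 per 100 kb, above 92.5% and 89.1% of all genes. TEAD1 had 1, in an intron 19.4 kb downstream of the TSS. The 2 of TEAD3 lay in an intron of PPARD, a nuclear receptor gene, 106 kb away. TEAD2 and TEAD4 had none, and their nearest p300/CBP peaks were 729778 and 703363 bp from the TSS. For scale, the median gene had none in its locus.

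Of the 32 peaks, 12 lay in introns of protein-coding genes, 14 between genes, 4 in exons, 1 in a UTR and 1 in the intron of LINC01013. The TSS of the member was the nearest of all protein-coding TSSs for 24 of them, or 75% (95% Wilson interval 57.9% to 86.7%). That of CCN1 was nearest for all 9 peaks of its locus, although 2 of these, 35.9 and 29.7 kb upstream, lay in an intron of the neighbour DDAH1. A CTCF peak lay between the p300/CBP peak and the TSS of the member for 22 of the 32 peaks. The 10 without one were 3 of WWTR1, 1 of TEAD1, 1 of CCN1, 1 of CCN2 and 4 of ANKRD1.

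The p300/CBP peaks of these loci were nearly all acetylated. H3K27ac was shared by 31 of 32, or 96.9% (84.3% to 99.4%), as against 49.3% of the whole list. Much of that list lay within 5 Mb of undetermined stretches of the genome sequence, and outside these regions, where all 32 peaks lay, the share was 69.1%. Pol II was shared by 17 of 32, or 53.1% (36.4% to 69.1%), whereas it was shared by 15.2% of the whole list and by 16.9% outside those regions. By locus these were 6 at CCN1, all 5 at ANKRD1, 3 at AMOTL2, 1 each at CCN2, WWTR1 and TEAD1, and none at YAP1 and TEAD3, so that 15 belong to target loci. Intervals cover counting error only, and peaks of 1 locus are not independent of each other. The exception without H3K27ac was a YAP1 peak 132 kb downstream.

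Candidate active enhancers (cAEs) were taken as H3K4me1 peaks that share at least 1 bp with H3K27ac and touch no promoter window, and candidate inactive enhancers (cIEs) as those without H3K27ac. The genome held 24323 and 49286 of them, and the 10 loci 57 and 125. Of the p300/CBP peaks, 22 of 32 lay in cAEs, or 68.8% (51.4% to 82.0%), which is close to the 69.1% of the list outside the regions near undetermined sequence. In the cIEs there was 1, the YAP1 peak just named. Of the remaining 9, 3 lay in promoter windows, 4 in H3K4me1 peaks that reach into one and 2 in H3K27ac without H3K4me1.

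Active and inactive candidates were distributed differently between the genes. CCN1 had 9 cAEs, more per 100 kb than 98.3% of all genes, AMOTL2 had 7 (91.7%) and TEAD3 had 8 (94.8%). None of those of TEAD3 had TEAD3 as the nearest protein-coding TSS, but PPARD, FANCE, RPL10A or TULP1. Over the 10 loci the member was nearest for 32 of 57, or 56.1% (43.3% to 68.2%). WWTR1 had 10 and YAP1 and TEAD1 had 8 each. CCN2 had 1, which lay near ENPP1, and ANKRD1, TEAD2 and TEAD4 had 2 each. The cIEs were densest at TEAD1, with 33, and at TEAD4, with 20, above 98.6% and 98.7% of all genes, so that these 2 loci were rich in H3K4me1 that lacked H3K27ac. At ANKRD1 the low count of cAEs follows from the definition, since its 17950-bp H3K4me1 peak reaches into the promoter window and is left out.

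The cAEs of these loci were wide, with a median of 4000 bp beside 2550 bp over the genome. The widest were 1 of 20600 bp in TEAD1 (centred 13.8 kb downstream of the TSS, with 1 p300/CBP peak), 1 of 19900 bp in WWTR1 (76.7 kb downstream, with 3) and 1 of 16950 bp over the AMOTL2 gene. CCN1 was flanked by 1 of 15500 bp upstream (31.4 kb, with 2 p300/CBP peaks) and 1 of 11100 bp downstream (29.3 kb, with 3 p300/CBP, 2 Pol II and 2 CTCF peaks). Of the 57, 16 held p300/CBP, or 28.1% (18.1% to 40.8%) beside 20.6% of all cAEs, and 20 held Pol II, or 35.1% (24% to 48.1%) beside 21.0%. H3K4me3 (36.8% beside 34.2%) and CTCF (19.3% beside 16.4%) were near the genome-wide shares. Of the 125 cIEs, p300/CBP was in 1 (0.800% beside 1.26% of all cIEs), Pol II in 2 (1.60% beside 3.77%), H3K4me3 in 3 (2.40% beside 3.19%) and CTCF in 8 (6.40% beside 7.57%).

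**Figure D5:**
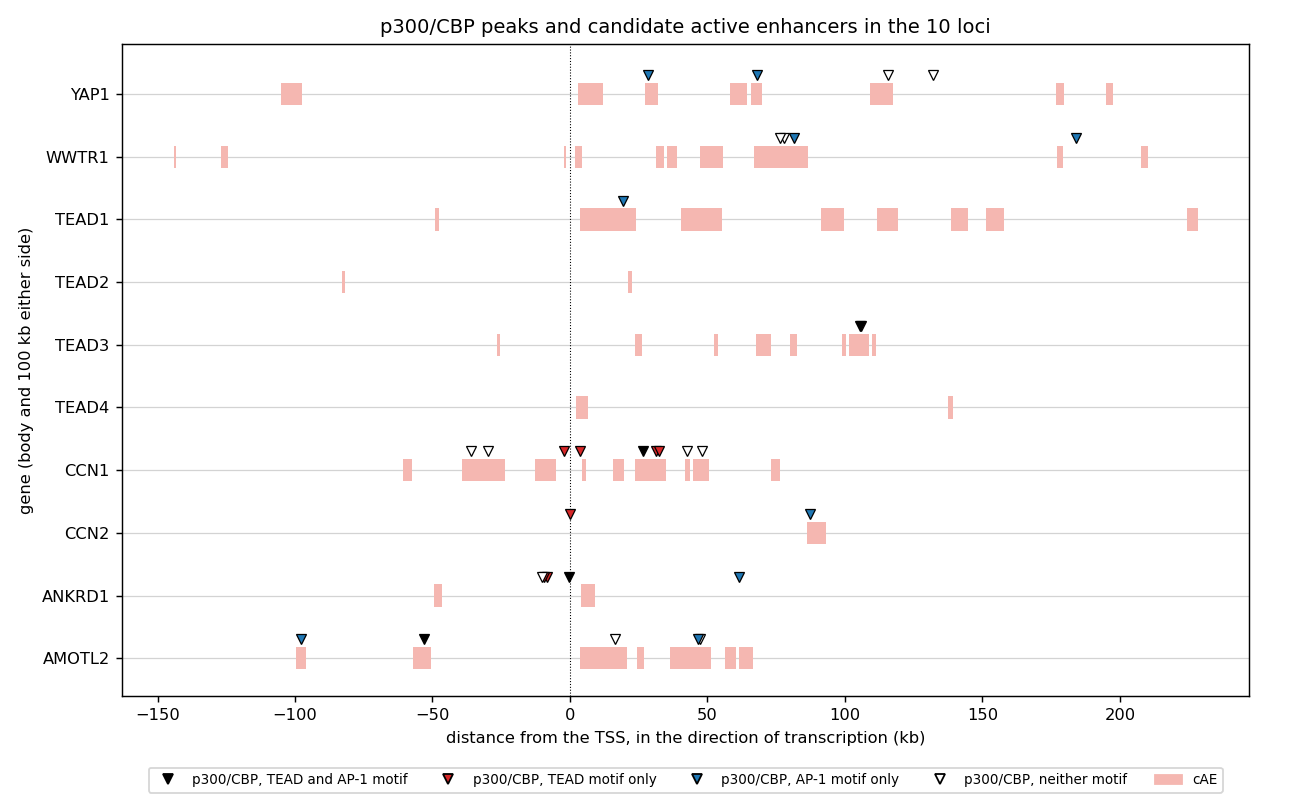
p300/CBP peaks (triangles, filled by the motifs in the 300 bp around the peak centre) and cAEs (bars, to scale) by distance from the TSS in kb, in the gene body and 100 kb on either side. The 9 peaks of CCN1 lie on both sides of the gene, and TEAD2 and TEAD4 have none.

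The motifs of p300/CBP peaks were compared with those of other windows of the same length. In the 300 bp around the centre of the peak, a TEAD match was found in 12 of 32, or 37.5% (22.9% to 54.7%), as against 32.2% of all p300/CBP peaks, 34% of those in cAEs, 32.5% of those in cAEs away from undetermined sequence, 16.9% of CTCF peaks and 10.1% of TSSs. An AP-1 match was found in 13 of 32, or 40.6% (25.5% to 57.7%), as against 38.4% of all p300/CBP peaks, 57.1% of those in cAEs, 59.9% of those in cAEs away from undetermined sequence, 8.74% of CTCF peaks and 4.61% of TSSs. The TEAD share in the 10 loci was thus within counting error of that of p300/CBP peaks at large. The AP-1 share was close to that of all p300/CBP peaks, which is not a like comparison. The whole list includes peaks within 5 Mb of undetermined sequence, of which 11.6% held AP-1, and none of the 32 lay there. Among the 22 peaks that lay in cAEs, 6 held a TEAD match, or 27.3% (13.2% to 48.2%), below the shares of cAE peaks at large. An AP-1 match was in 10 of these 22, or 45.5% (26.9% to 65.3%). Both intervals hold the shares of cAE peaks at large.

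By gene the TEAD matches were uneven. They were in 5 of the 9 peaks of CCN1, 1 of 2 of CCN2, 3 of 5 of ANKRD1, 1 of 5 of AMOTL2 and both of TEAD3, whose windows overlap, and in none of the 4 of YAP1, the 4 of WWTR1 or the 1 of TEAD1. The peaks of these last 3 genes held AP-1 in 5 of 9. Both motifs stood together in 4 of the 32, TEAD alone in 8, AP-1 alone in 9 and neither in 11. In p300/CBP peaks of cAEs away from undetermined sequence the shares were 17.4% with both, 15.2% with TEAD alone, 42.6% with AP-1 alone and 24.9% with neither. The most matches in 1 window were 3, in the CCN2 promoter peak and in the CCN1 peak 32.2 kb downstream, which was also the 1 peak of the 32 that shared bases with CTCF. A match is a stretch of letters and does not show that a factor was bound.

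CTCF peaks numbered 74 in the 10 loci. There were 12 at WWTR1, 9 at AMOTL2, 8 each at TEAD1, TEAD3 and CCN2, 7 each at TEAD4 and ANKRD1, 6 at TEAD2, 5 at YAP1 and 4 at CCN1, and the median gene had 5. Per 100 kb the densest were AMOTL2 (4.09, above 85.6% of genes) and CCN2 (3.94, above 84.2%). CCN1 had the fewest by count, but at 1.96 per 100 kb it lay above YAP1 (1.55) and TEAD1 (1.70).

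Other genes of the pathway were read from 2 lists chosen by name. Of 17 upstream regulators (kinases, scaffolds and their partners, such as LATS1, STK4 and NF2), 16 had H3K27ac, H3K4me3 and Pol II in the promoter window, beside 56.3% of all genes, RASSF1 being the exception, although Pol II peaks covered 75.8% of its body. None had p300/CBP there (0.704% of all genes) and none was covered by Pol II over 99% of the body (2.80% of all genes). Both shares are so low over all genes that 0 of 17 reads as background. Their median Pol II cover was 0.763%. Of 18 other targets, 17 had H3K27ac (61.5% of all genes), 17 had H3K4me3 (62.7%) and 16 had Pol II (58.4%). DLC1 lacked H3K27ac.

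In the other targets p300/CBP was in the promoter windows of MYOF and ASAP1, 2 of 18 beside 0.704% of all genes. Pol II covered at least 99% of the body in AXL (also a basal-B marker above), F3 and AJUBA, 3 of 18 beside 2.80%. The median cover was 4.14%. A p300/CBP peak lay in the locus of 17 of 18 other targets and 10 of 17 regulators, beside 37.5% of all genes, with medians of 1.57 and 0.263 per 100 kb.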

How the data were processed

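The labels describe ChIP-seq in MDA-MB-231 cells, in 2 replicates for each antibody except p300/CBP, whose 1 library held pooled immunoprecipitations. Input libraries have no peak list and were not analysed here. The file names give background subtraction for H3K4me1, H3K4me3, H3K27ac and p300/CBP, but not for Pol II or CTCF. The lists were thus not all made alike, and the Pol II cover of genes rests on a list without that step in its name. According to the methods, reads were aligned with BWA to hg19 (Bowtie2 in the submitters' processing notes), signal was computed in 50-bp bins with PASHA, replicates were merged, and runs of bins over a threshold were called as peaks. The deposited lists hold peak positions only, with no count, signal or score. Runs closer than 50 bp (p300/CBP, CTCF), 500 bp (H3K27ac, H3K4me3), 800 bp (Pol II) or 1000 bp (H3K4me1) were joined, per the file names, which sets how peaks break or extend along genes. Depth per sample is unknown. The deposited p300/CBP list is much longer, and the Pol II and CTCF lists slightly longer, than those the study's text describes. Every p300/CBP count and background share here rests on the lists as deposited.

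The end of a peak was not counted as part of it. Positions, motifs and percentiles were computed with Python 3.11.15, NumPy 2.4.6, SciPy 1.17.1 and pysam 0.24.0, and plots were drawn with matplotlib 3.10.9. Genes came from GENCODE release 44 on GRCh37. A percentile is the share of protein-coding genes, or of peaks of the list, with a lower value. Shares carry 95% Wilson intervals. The overlap and motif functions were tested on simulated data. No test was run, since each antibody has 1 list. The genes, the gene lists and the comparisons were chosen with earlier results of these data known. All 10 members are named. Genes of the 2 pathway lists are named where H3K27ac was missing or p300/CBP present at the promoter, and those with full Pol II cover were named after their values had been seen.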

Additional observations from a re-analysis of the deposited data

How the results depend on the processing

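Of 74 values recomputed for 18 results, 56 stayed near the reported value (counts within 1.5 times, shares within their 95% interval) and 18 did not. The median Pol II cover, which has no interval, counts as moved at any change. With the TSS base in place of the 3 kb window, H3K4me3 was found in 6 members and H3K4me1, p300/CBP and CTCF in 0. With a 1 kb window, H3K4me1 and CTCF were found in 0. With only the wider peaks of each list (from its median width up), there were 36 cAEs, 65 cIEs, 20 p300/CBP peaks and 29 Pol II peaks in the loci and CTCF in 1 promoter window. Where H3K27ac had to cover 50% of the H3K4me1 region, 25 cAEs were left, and within 50 kb of the genes there were 82 cIEs. With promoter windows not left out, cAEs held 87.5% of the p300/CBP peaks. Without the 1.5 kb next to the TSS the median Pol II cover of the 10 genes was 10.1%. The TEAD share of p300/CBP windows was 59.4% in 500 bp (43.6% of all p300/CBP peaks in cAEs) and 21.9% for GGAATGT. Next to the TSS, GGAATGT was found in 3 members. Alternatives for full Pol II cover and for TEAD motifs at the TSS were chosen after seeing the data. At 90% or 50% of the body, the count of members stayed at 4.

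No paired analysis was possible because replicates were merged before peaks were called, and the lists therefore gave no values with a replicate left out. Peaks carry no height, so width took the place of a stricter threshold. The absence of a peak says that the merged signal stayed under the authors' threshold, not that the factor was absent.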

Other observations

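Each protein-coding gene was described by 24 percentile ranks, the share covered by each of the 6 lists in the promoter window, in the gene body, in the 100 kb upstream and in the 100 kb downstream, and the genes with the smallest Euclidean distance to a member were found among those at least 1 Mb away. Nearest to CCN1 was JUN, which encodes an AP-1 subunit, at a distance of 69.1, with the next, IRF2BP2, at 103 and a median of 224 over all genes. Nearest to ANKRD1 were COTL1 (73.3) and ITPRIPL2 (81.6), beside a median of 198. AMOTL2 was nearest to CAPN2 (60.0) and RHOBTB3 (65.6), beside 211. CCN2 had no close match, the nearest being HINT3 (102) and TCEAL1 (106), beside 198. Of the coactivators, YAP1 was nearest to FGD6 (65.8) and LAMC1 (72.5), and WWTR1 to SMAD6 (67.0) and RASAL2 (70.0), beside medians of 182 and 180. TEAD1 was nearest to FOXK1 (60.2), TEAD2 to FOXM1 (45.7), which starts within the TEAD4 locus, TEAD3 to DLST (48.7) and TEAD4 to OXSR1 (45.5) after an unnamed gene (42.0). The distance has no replicate error and says nothing of shared function.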
